A study of Mus musculus with 4 samples.

Results

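The genes described here encode inducible antimicrobial defence proteins of the gut epithelium: the lectins Reg1, Reg3a, Reg3b and Reg3g, the resistin-like protein Retnlb, the oxidant-producing enzymes Nos2 and Duox2 with the Duox2 maturation factor Duoxa2, the immunoglobulin transporter Pigr and the acute-phase protein Saa1. The rule that picks them is a list of names and uses no measured value, though the list was drawn up with earlier results of these data known. Of the 10 genes, 9 had a probe that could be named and tested, out of 14392 genes tested in all, and Duox2, for which no probe could be named through the reference table, was not analysed here. Total RNA of small intestine was read on 1-colour arrays from 2 samples of Cyp3a-/- mice, which lack the Cyp3a cluster of drug- and steroid-oxidising cytochrome P450 genes, and from 2 samples of wild-type mice. Per the series description, the separate experiments drew on different animals, and strain, age, gut segment and the number of animals per array are not given in the sources used here. The arrays are called knockout 1 and 2 and wild type 1 and 2 after the numbers in the labels. P-values measure only the spread between these samples.

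Epithelial cells of the small intestine release antimicrobial proteins that keep bacteria away from the mucosal surface. Microbes sensed through Toll-like receptors and the adaptor Myd88, and the cytokine interleukin 22 acting through Stat3, are known to induce the Reg3 lectins, and inflammatory cytokines induce Nos2, Duox2 and Saa genes. Pigr is made more steadily: it carries immunoglobulin A made by plasma cells across the epithelium into the lumen. These genes are therefore commonly read as a measure of how strongly the mucosa is responding to microbes.

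Each level is a log2 processed signal minus its own array's 75th percentile of such signals, and differences are Cyp3a-/- minus wild type on that log2 scale. Having only 2 arrays of each genotype limits how precise any value can be. Before scaling, that percentile stood at a signal of 322 and 175 in knockout 1 and 2, and 226 and 356 in wild type 1 and 2, and no spot was saturated. Knockout 1 and wild type 2 were on the same slide, while knockout 2 and wild type 1 were each alone on another. Cyp3a11, the deleted gene that checks the labels, had levels of -5.77 and -4.52 in knockout 1 and 2, against 5.05 and 5.78 in wild type 1 and 2. Knockout 1 stood apart from the rest: across the tested genes its levels correlated at 0.948 with knockout 2, 0.966 with wild type 1 and 0.962 with wild type 2, against 0.979 to 0.981 for the other pairs. Absorptive enterocyte markers, among them the brush border enzyme genes Sis and Alpi, were well above background on every array (12 of 12), which fits the tissue label.

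None of the 9 defence genes passed limma's threshold of 0.05 for the adjusted p (each adjusted p = 1.00). Of all tested genes 0.0417% did, which are 6 genes, all lower in Cyp3a-/- and the deleted Cyp3a11 among them. None of the 9 had an unadjusted p under 0.05 either, against 0.438% of all genes. In none of the 9 did both arrays of 1 genotype lie above both of the other, which 14.7% of all genes did. The difference was positive in 8 of the 9 genes and negative in 1, where 56.2% of all genes were positive. The median difference was 0.40 over the 9 genes and 0.04 over all genes tested. That median differed between the knockout arrays: it was 0.76 in knockout 1 relative to the wild-type mean and -0.04 in knockout 2. Wild type 1 and 2 lay at 0.14 and -0.14 on the same scale. Knockout 1 was the highest array for 6 of the 9 genes, namely Reg1, Reg3a, Reg3b, Reg3g, Nos2 and Duoxa2, where 34.2% of all genes were highest there. Knockout 2 was the highest for Retnlb and Pigr, and wild type 2 for Saa1. One limit applies to all of these values: in bulk tissue RNA, fewer cells of a type and less RNA per cell cannot be told apart.

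**Figure D1:**
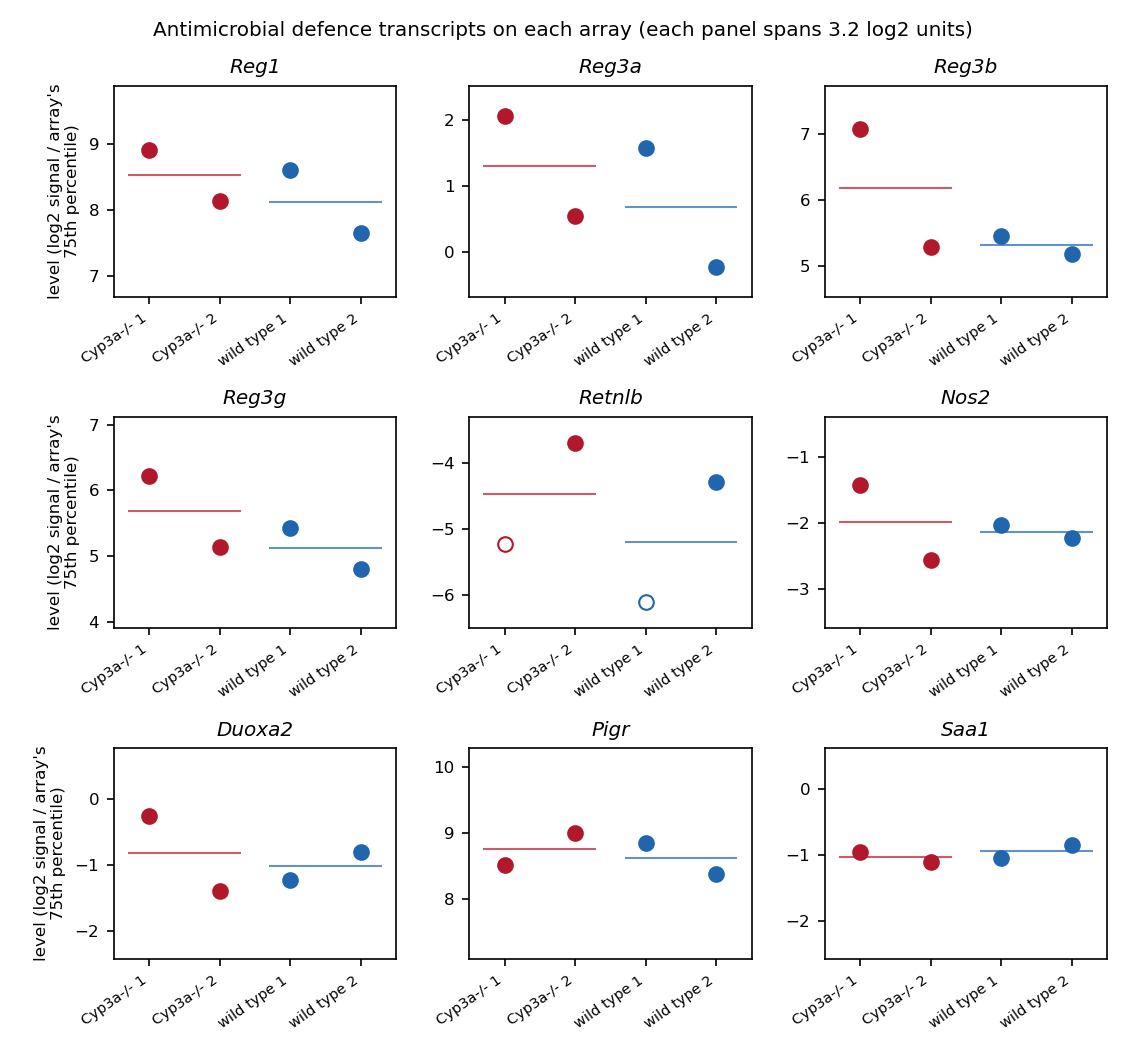
Level of each of the 9 tested defence genes (log2 signal relative to the array's 75th percentile) on the 2 Cyp3a-/- and the 2 wild-type arrays. Each point is 1 array, lines are genotype means, and open points are signals not well above background. In Reg3b, knockout 1 stands at 7.08 while the other 3 arrays lie between 5.18 and 5.45. Saa1 is nearly level across the arrays.

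Reg3b and Reg3g, secreted C-type lectins of enterocytes and Paneth cells, were higher in knockout 1 than on any other array. Reg3b had levels of 7.08 and 5.28 in knockout 1 and 2, against 5.45 and 5.18 in wild type 1 and 2. Knockout 2 thus lay between the wild-type arrays, and knockout 1 lay 1.62 above the next array, a gap that 41 of the 14392 tested genes (0.285%) matched or exceeded. The Reg3b mean was 6.18 ± 1.27 in Cyp3a-/- and 5.32 ± 0.19 in wild type (SD, n = 2 each). The difference of 0.86 (SE 0.60, limma's 95% interval -0.60 to 2.32) is a 1.82-fold higher mean signal and did not pass the test. Taken alone, knockout 1 had 3.38-fold the wild-type mean signal and knockout 2 had 0.9747-fold.

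Reg3g, the lectin known in mice for killing Gram-positive bacteria, had levels of 6.22 and 5.14 in knockout 1 and 2, against 5.44 and 4.81 in wild type 1 and 2. Again knockout 1 was the highest array and knockout 2 fell between the wild-type arrays. The means were 5.68 ± 0.76 in Cyp3a-/- and 5.12 ± 0.44 in wild type (SD, n = 2 each), a difference of 0.56 (SE 0.46, 95% interval -0.57 to 1.69). Within the slide shared by knockout 1 and wild type 2, Reg3b was 3.71-fold and Reg3g 2.66-fold higher in knockout 1. After background correction with normexp the Reg3g difference was -0.05 and that of Reg3b 0.19.

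The stretches upstream of these lectin genes are shown because both genes were highest on the same array and the stretches resemble each other. Each holds 250 bases before the gene's start, 5′ to 3′ on the gene's strand, from RefSeq on GRCm38.p6. The Reg3b stretch is chr6:78370635-78370884 on the plus strand and the Reg3g stretch is chr6:78468875-78469124 on the minus strand. Capitals mark matches to TATAAA and to TTCNNNGAA, a palindrome of the kind bound by STAT factors. Both strands were searched, so TTTATA is a match to the first on the other strand.
Reg3b: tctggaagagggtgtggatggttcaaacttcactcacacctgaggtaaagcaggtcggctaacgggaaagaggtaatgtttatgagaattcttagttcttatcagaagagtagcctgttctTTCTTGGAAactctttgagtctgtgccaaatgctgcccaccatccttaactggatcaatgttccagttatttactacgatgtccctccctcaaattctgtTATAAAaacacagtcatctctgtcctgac
Reg3g: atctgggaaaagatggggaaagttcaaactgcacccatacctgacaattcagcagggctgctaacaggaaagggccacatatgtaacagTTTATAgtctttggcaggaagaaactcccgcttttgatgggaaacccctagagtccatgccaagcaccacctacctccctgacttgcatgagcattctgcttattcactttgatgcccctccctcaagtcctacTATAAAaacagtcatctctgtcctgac
A TATAAA match began 29 bases before the start of Reg3b and 27 bases before the start of Reg3g. Of the 8 listed genes with a promoter in the table, 4 held TATAAA (Reg1, Reg3b, Reg3g and Duoxa2) and 1 held TTCNNNGAA (Reg3b), where 12.4% and 7.02% of all 32851 promoters did. AGATAA, a motif of the GATA kind, was in 0 of the 8 and in 9.99% of all. In a global alignment the Reg3b and Reg3g stretches were identical at 177 of 257 positions (68.9%), against 47.9% to 53.5% for the other pairs among Reg1, Reg3a, Reg3b and Reg3g. These matches describe letters only.

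Reg3a and Reg1 varied among the wild-type arrays as much as between genotypes. Reg3a, a further lectin of this family, had levels of 2.06 and 0.55 in knockout 1 and 2, against 1.58 and -0.23 in wild type 1 and 2. Its wild-type arrays lay 1.81 apart and its knockout arrays 1.52 apart. The difference was 0.63 (SE 0.72), and it was -0.28 without wild type 2 and 1.53 without wild type 1. Reg1, a secreted lectin known from pancreas and regenerating gut, had levels of 8.91 and 8.13 in knockout 1 and 2, against 8.60 and 7.64 in wild type 1 and 2. The genotypes alternated in this order, so that each knockout array was above 1 wild-type array or both. The Reg1 difference was 0.40 (SE 0.53, 95% interval -0.88 to 1.68), and it was -0.28 after normexp. Within the shared slide Reg3a was 4.90-fold and Reg1 2.42-fold higher in knockout 1 than in wild type 2.

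In the reference annotation Reg3b, Reg3d, Reg3a, Reg2, Reg1 and Reg3g follow each other in this order on chromosome 6 with no other protein-coding gene between them. All 6 were highest in knockout 1. Reg2, a relative known from pancreas, had levels of -0.09 and -2.33 in knockout 1 and 2, against -2.48 and -1.22 in wild type 1 and 2. Reg3d, another relative, had levels of -1.80 and -2.91 in knockout 1 and 2, against -2.72 and -3.47 in wild type 1 and 2. For both, knockout 2 lay within the wild-type range. The differences were 0.64 (SE 0.79) for Reg2 and 0.74 (SE 0.52) for Reg3d. Reg4, which lies elsewhere and marks deep crypt secretory and enteroendocrine cells, differed by 0.19 (SE 0.36), and it too was highest in knockout 1 (1.82 and 1.26 in knockout 1 and 2, against 1.698 and 1.00 in wild type 1 and 2). Reg transcripts resemble each other, and binding of 1 member's transcript to another's probe was not tested. Well above background is the scanner software's own mark for a signal, and pancreatic enzyme markers mostly missed it: 6 of the 11 with a probe, among them Prss2, Cpa1 and Pnlip, were below that mark on all 4 arrays, and the summed signal of the 5 tested was 4.44 and 6.11 times the array's 75th percentile in knockout 1 and 2, against 4.77 and 5.26 in wild type 1 and 2. That sum is mostly Clps, the pancreatic colipase gene, with levels of 1.93 and 2.40 in knockout 1 and 2, against 2.14 and 2.21 in wild type 1 and 2. Over the 5 tested markers 4 differences were positive, 3 genes were highest in knockout 1, and the medians relative to the wild-type mean were 0.61 and 0.26 in knockout 1 and 2. Their part in the Reg levels was not tested.

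**Figure D2:**
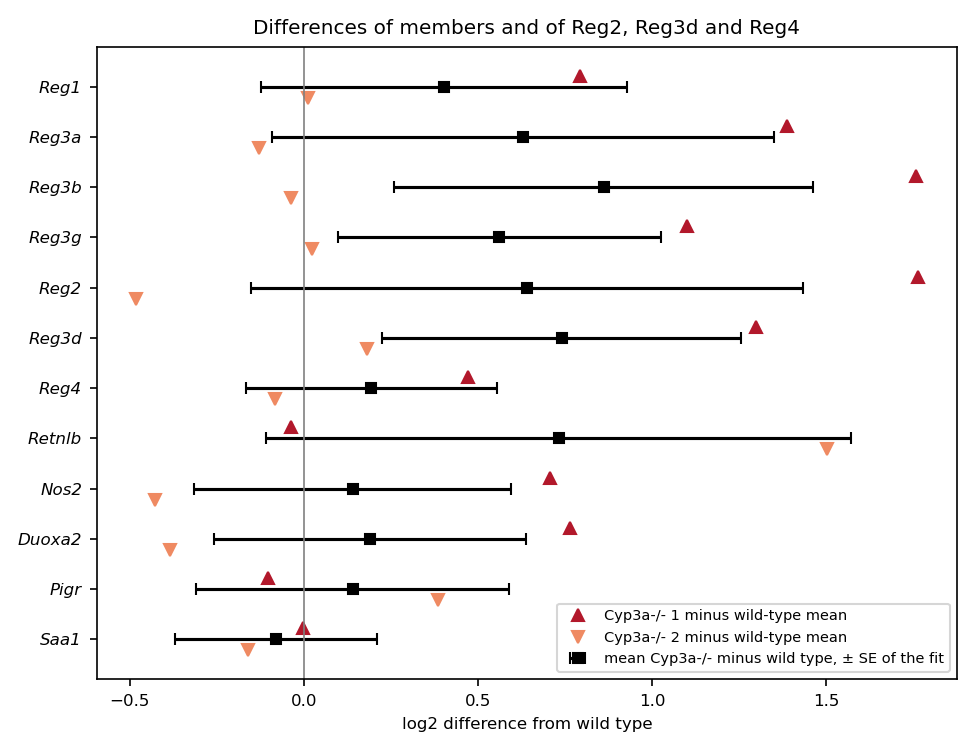
Log2 difference from wild type for the 9 defence genes and for Reg2, Reg3d and Reg4. Squares are Cyp3a-/- minus wild type with the standard error of limma's fit, and triangles are each knockout array minus the wild-type mean. For Reg3b knockout 1 lies at 1.76 and knockout 2 at -0.04, and Retnlb shows the opposite order, with knockout 2 the higher. The signs of Reg1, Reg3g, Pigr and Saa1 turned after normexp, and that of Pigr also after quantile normalization.

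Retnlb, a goblet cell protein induced by bacteria and worms, was close to background. Its levels were -5.23 and -3.70 in knockout 1 and 2, against -6.11 and -4.29 in wild type 1 and 2. It was well above background only in knockout 2 and wild type 2, so 1 of 2 arrays of each genotype measured it. The difference of 0.73 (SE 0.84, 95% interval -1.31 to 2.77) therefore rests in part on signals that carry only a bound. Unlike the Reg genes it was higher in knockout 2 than in knockout 1. Goblet cell markers had medians of 0.81 and -0.04 in knockout 1 and 2 relative to the wild-type mean, against 0.16 and -0.16 in wild type 1 and 2, the reverse order in the knockout arrays. These markers were split: 6 of 8 were highest in knockout 1, while Agr2 and Spdef lay at -1.68 and -2.13 there relative to the wild-type mean.

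Nos2 and Duoxa2, which serve the production of nitric oxide and of hydrogen peroxide, split the knockout arrays to either side of wild type. Nos2, the inducible nitric oxide synthase, had levels of -1.43 and -2.56 in knockout 1 and 2, against -2.04 and -2.23 in wild type 1 and 2. Knockout 1 was the highest and knockout 2 the lowest of the 4 arrays. The difference was 0.14 (SE 0.46, 95% interval -0.97 to 1.25), and it was 0.83 after normexp. Duoxa2, which lets Duox2 leave the endoplasmic reticulum for the cell surface, had levels of -0.25 and -1.39 in knockout 1 and 2, against -1.22 and -0.80 in wild type 1 and 2. Here too the wild-type arrays lay between the knockout arrays, and the difference was 0.19 (SE 0.45, 95% interval -0.90 to 1.28), or 0.59 after normexp. A second Duoxa2 probe was well above background only in knockout 1 and wild type 2, the arrays with the brighter 75th percentiles. It had levels of -3.48 and -5.36 in knockout 1 and 2, against -5.68 and -4.22 in wild type 1 and 2, so both probes ranked knockout 1 first and wild type 2 next. The part of array brightness in this order was not tested. Duox1, the relative of Duox2, was not well above background on any array.

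Pigr was bright. The probe used had levels of 8.51 and 8.996 in knockout 1 and 2, against 8.85 and 8.37 in wild type 1 and 2. The means were 8.75 ± 0.34 in Cyp3a-/- and 8.61 ± 0.34 in wild type (SD, n = 2 each), a difference of 0.14 (SE 0.45, 95% interval -0.95 to 1.23) whose sign turned under quantile normalization (-0.07) and normexp (-0.56). A second probe had levels of 6.36 and 5.92 in knockout 1 and 2, against 6.39 and 5.58 in wild type 1 and 2, with a difference of 0.15. The probes disagreed on which knockout array was higher. Before scaling, the probe used had signals of 117437 and 89496 in knockout 1 and 2, against 104127 and 117947 in wild type 1 and 2. Its scaled levels ranked the arrays in the reverse order of their percentile signals, and those of the second probe did not. The part of array brightness in the levels of the probe used was not tested. In the secretory immunoglobulin A pathway that Pigr serves, 0 of 11 tested genes passed in either direction, where 0.0417% of all tested genes did. The pathway's median difference was -0.14. Jchain, which links immunoglobulin A into the dimers that Pigr binds, had levels of 6.33 and 5.89 in knockout 1 and 2, against 6.48 and 6.23 in wild type 1 and 2. The pathway's smallest unadjusted p-values belonged to the plasma cell chaperone gene Mzb1 (difference -0.64, SE 0.39), the B cell receptor gene Cd79a (-0.65, SE 0.45) and the plasma cell homing receptor gene Ccr10 (-0.28, SE 0.38). Cd79a was dim and was well above background on at most 3 of the 4 arrays.

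Saa1, an acute-phase protein that the gut epithelium makes on contact with some bacteria, was the steadiest of the genes. Its levels were -0.95 and -1.11 in knockout 1 and 2, against -1.04 and -0.85 in wild type 1 and 2. All 4 arrays lay within a narrow band, and the difference was -0.08 (SE 0.29, 95% interval -0.79 to 0.63), or 0.24 after normexp. Its relatives Saa2 and Saa3 stayed below the background mark on all 4 arrays. Lcn2, an epithelial and neutrophil protein that withholds iron from bacteria, had levels of -1.19 and -1.88 in knockout 1 and 2, against -1.83 and -1.59 in wild type 1 and 2. Markers of liver, a major source of Saa1, had a summed signal of 0.877 and 3.22 times the 75th percentile in knockout 1 and 2, against 10.9 and 2.54 in wild type 1 and 2, and their part in the level of Saa1 was not tested.

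Other genes of the defence pathways were drawn from lists by pathway, and in each list described here 0 tested genes passed the threshold in either direction. Over all tested genes 0.0417% passed it. Among 14 tested genes for other antimicrobial and barrier proteins, 6 differences were positive and 8 negative, with a median of -0.05. Their medians relative to wild type were -0.14 and -0.04 in knockout 1 and 2, so this list did not share the excess in knockout 1. The secretory protein genes Wfdc2 (difference -1.35, SE 0.81), Slpi (-0.58, SE 0.33) and Ltf (-1.19, SE 0.74), which encode protease inhibitors and the iron-binding lactoferrin, had the list's smallest p-values. Wfdc2 had levels of 1.84 and 4.43 in knockout 1 and 2, against 4.15 and 4.81 in wild type 1 and 2, and was therefore lowest where Reg3b was highest.

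Interleukin 22 and interleukin 17 signalling genes had positive differences in 12 of 17, with a median of 0.30 and medians of 0.60 and -0.01 in knockout 1 and 2. The cytokine genes Il17a, Il17f, Il23a and Il6 stayed below the background mark on all 4 arrays, and Il22 was so on only 2 of 4, with levels of -4.69 and -4.95 in knockout 1 and 2, against -5.02 and -4.67 in wild type 1 and 2. The epithelial receptor gene Il22ra1 had levels of 0.38 and -1.32 in knockout 1 and 2, against -0.79 and -0.80 in wild type 1 and 2. Stat3, the factor downstream of it, was even (3.99 and 3.71 in knockout 1 and 2, against 3.87 and 3.53 in wild type 1 and 2). Il22ra2, a soluble receptor that blocks interleukin 22, had levels of -1.26 and -1.58 in knockout 1 and 2, against -2.16 and -4.02 in wild type 1 and 2. It was higher in both knockout arrays than in either wild-type array, where 14.7% of all genes had no overlap between genotypes in either direction. The Il22ra2 difference was 1.67 (SE 0.63), with limma's unadjusted p = 0.0363 and adjusted p = 1.00. Wild type 2 was well below wild type 1. The other genes with the smallest p in the list were Ahr (0.70, SE 0.43), the sensor of dietary ligands, and Il18 (0.81, SE 0.54), an epithelial cytokine.

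Toll-like receptor, NOD and NF-kB genes had positive differences in 17 of 27, with a median of 0.07. Myd88 differed by 0.19 (SE 0.31), the NF-kB cofactor gene Nfkbiz by 0.12 (SE 0.40) and the muramyl dipeptide sensor gene Nod2 by -0.66 (SE 0.46). Ly96, a partner of Tlr4 in sensing endotoxin, differed by 0.49 (SE 0.34) and Tlr6, a receptor for bacterial lipopeptides, by -0.62 (SE 0.50). Tlr6 was dim and was well above background on at most 3 of the 4 arrays.

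**Figure D3:**
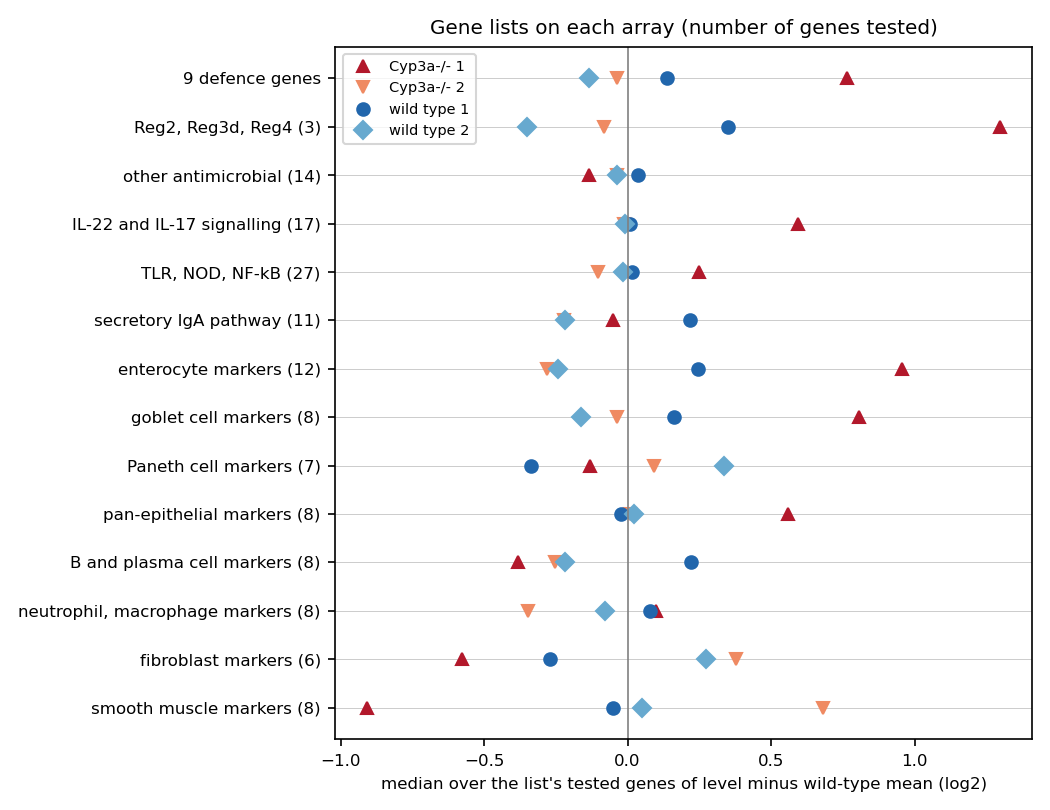
Median over each list's tested genes of the level minus the wild-type mean (log2), for each of the 4 arrays. The number of tested genes is in parentheses. The 9 defence genes lie at 0.76 in knockout 1 and -0.04 in knockout 2, and enterocyte markers at 0.96 and -0.28, while smooth muscle markers lie at -0.91 and 0.68.

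Enterocyte and pan-epithelial markers were mostly highest in knockout 1, where 34.2% of all genes were highest. Enterocyte markers were highest there for 10 of 12 genes, and their summed signal was 1502 and 847 times the 75th percentile in knockout 1 and 2, against 1177 and 754 in wild type 1 and 2. Pan-epithelial markers were highest in knockout 1 for 6 of 8 genes (summed signal 536 and 375 in knockout 1 and 2, against 378 and 386 in wild type 1 and 2). Smooth muscle markers ran the other way, with a summed signal of 174 and 523 in knockout 1 and 2, against 310.0 and 342 in wild type 1 and 2. Of the smooth muscle, fibroblast, and B and plasma cell markers, 0 of 8, 0 of 6 and 0 of 8 tested genes were highest in knockout 1. Paneth cell markers, a cell type that also makes Reg3 lectins, were highest in knockout 1 for 0 of 7 tested genes, with medians of -0.13 and 0.09 in knockout 1 and 2. Lyz1, the Paneth cell lysozyme gene, had levels of 4.75 and 4.97 in knockout 1 and 2, against 4.52 and 5.24 in wild type 1 and 2. Neutrophil and macrophage markers had medians of 0.10 and -0.35 in knockout 1 and 2, and S100a8 and Cxcr2 among them stayed below the background mark on all 4 arrays. Distal small intestine markers had a summed signal of 18.9 and 5.85 in knockout 1 and 2, against 10.5 and 9.79 in wild type 1 and 2. For proximal small intestine markers it was 115 and 65.4, against 83.5 and 79.5 in the same order. For large intestine markers it was 6.97 and 3.31, against 6.31 and 4.80. The part of the epithelial, muscle and gut position markers in the levels of the defence genes was not tested.

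Reg3b's pattern over the 4 arrays had close matches outside the defence genes. By the root mean square difference between levels centred on each gene's mean, over 4 arrays, the nearest were Ttll2 (0.05), Gm11545 (0.06) and Cyb5a (0.08), and among the defence genes Reg3g (0.32). Cyb5a, the cytochrome b5 electron carrier, had levels of 6.88 and 5.12 in knockout 1 and 2, against 5.12 and 5.06 in wild type 1 and 2. For Pigr the nearest were Glud1, Hirip3 and Rplp2 (0.01 each).

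**Figure D4:**
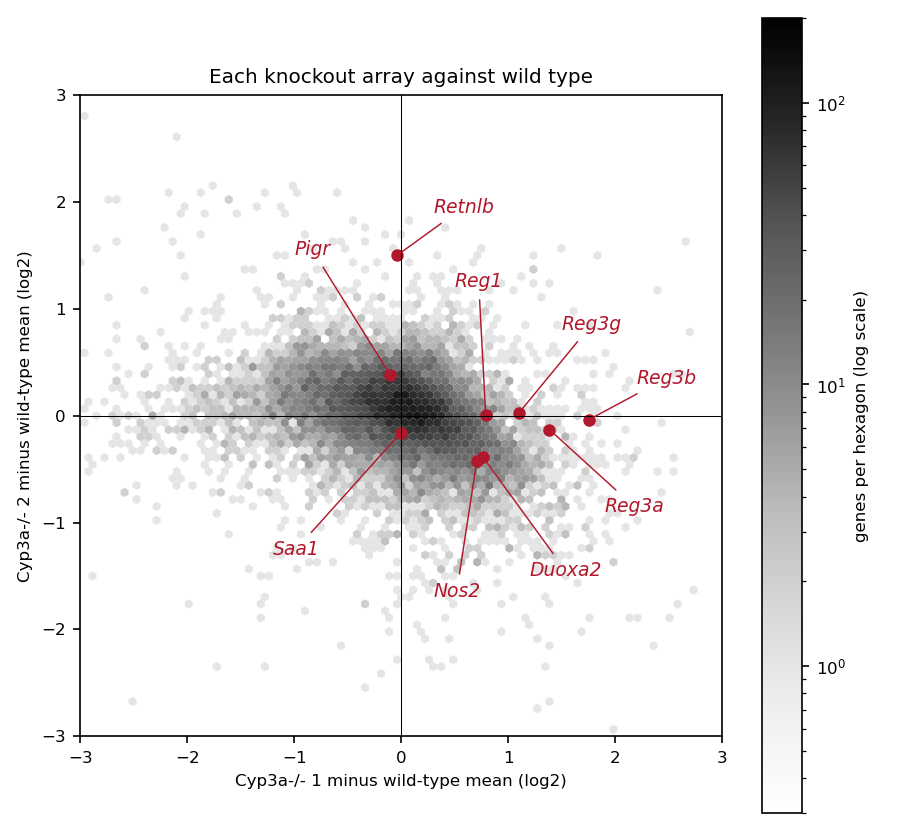
Knockout 1 minus the wild-type mean (horizontal) against knockout 2 minus the same mean (vertical), both log2. Grey hexagons count all tested genes, of which 50 lie beyond 3 on an axis and are not drawn, and red points are the 9 defence genes. The axes share the wild-type arrays. Reg1, Reg3a, Reg3b and Reg3g lie to the right at 0.79 to 1.76, close to 0 on the vertical axis, and Nos2 and Duoxa2 lie to the right and below.

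The result turned on which arrays were kept. Without knockout 1, the median difference of the 9 genes was -0.04 and 4 differences were positive. Without wild type 2 it was 0.041 with 6 positive, and without wild type 1 it was 0.38 with 6 positive. Without knockout 2 it was 0.76 and 6 were positive. In that last fit the lone knockout array is assumed to vary like the wild-type ones, and 4 of the 9 genes (Duoxa2, Reg3a, Reg3b and Reg3g) had an unadjusted p under 0.05, where 14.8% of all genes did. None of the 9 passed the adjusted threshold in it, where 2.99% of all genes did. Within the shared slide, knockout 1 against wild type 2, the median difference was 0.81 over the 9 genes and 0.08 over all genes tested, with no test because each genotype then has 1 array.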

How the data were processed

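Cy3-labelled RNA of small intestine was read on 1-colour Agilent mouse arrays. Images were read by the authors with Agilent Feature Extraction 11.5.1.1, per the submitters' processing notes. The deposited intensity of each spot is background-subtracted and detrended but not scaled between arrays, per the file headers. The authors' value table, in log2, equals the levels computed here minus each probe's median over the 4 arrays (all values within 0.01, on 39408 probes). Its column medians were -0.11 and 0.12 for knockout 1 and 2, and 0.05 and -0.10 for wild type 1 and 2, so it keeps differences but no levels.

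Control and outlier-flagged spots were removed, and repeat spots of a probe were averaged. The 75th percentile of log2 processed signal was subtracted per array. Of 39429 probes, 28025 matched 1 symbol through their accession in RefSeq's table of GRCm38.p6. A probe was kept when at least 2 of 4 arrays marked it well above background and all 4 gave a value, and the brightest per symbol was used. Genotypes were compared across all 14392 genes with limma 3.58.1 (lmFit and eBayes with an intensity trend, R 4.3.3) and Benjamini-Hochberg adjustment. A slide term leaves 0 residual degrees of freedom, so knockout 1 minus wild type 2, which share a slide, is given in its place.

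The members and lists were chosen with earlier results of these data known. Named beyond the 9 genes are, per pathway list, the 3 genes of smallest p and a fixed set of pathway genes, and genes that mark cell types. One pathway list is not reported here. Sis, Alpi, Lyz1, Il22 and the order in which Wfdc2 stands were singled out after their values were seen. For normexp the median spot intensity stood in for the planned mean. Alternatives were other background corrections, scalings, filters, probe rules and variance settings, the authors' table, the replicate number as a block, and fits without 1 array.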

Additional observations from a re-analysis of the deposited data

How the results depend on the processing

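None of the 9 defence genes passed limma's adjusted threshold under any alternative tried. With 2 arrays of each genotype kept, their lowest adjusted p from limma was 0.876, after normexp. Over all genes the count of calls was 6, and it was 13 after normexp, 0 with probes required above background on all 4 arrays (unadjusted p under 0.05 in 24 higher and 17 lower genes), and 0 to 430 when 1 array was left out: 12 without knockout 1, 430 without knockout 2, and 0 without either wild-type array. The 6 calls were all lower in Cyp3a-/-, and genes without signal in 1 genotype cannot pass that filter on all 4 arrays. Same-numbered samples did not deviate together (correlation 0.05), so the numbers are not shown to pair them. With the number as a replicate block 32 genes were called. In that fit Reg3b alone of the 9 had limma's unadjusted p under 0.05, where over all genes 60 higher and 225 lower did. The median difference of the 9 genes was -0.037 without knockout 1, in a range of -0.037 to 0.76 over the arrays left out (0.041 without wild type 2), and 0.24 after normexp. Signs turned after normexp for Reg1 (-0.28), Reg3g (-0.050), Pigr (-0.56) and Saa1 (0.24), and under quantile normalization for Pigr (-0.069). After normexp the differences of Nos2 (0.83) and Duoxa2 (0.59) were larger and that of Reg3b (0.19) smaller, each by over 1.5 times. Leaving out 1 array gave ranges of -0.079 to 0.88 for Reg1, -0.28 to 1.53 for Reg3a, -0.037 to 1.76 for Reg3b, -0.18 to 1.64 for Retnlb, -0.43 to 0.71 for Nos2, -0.38 to 0.76 for Duoxa2, -0.10 to 0.38 for Pigr and -0.18 to 0.015 for Saa1, and Reg3g kept its sign (0.02 to 1.099). Within the shared slide Retnlb was -0.95. The cause of these turns was not tested. Retnlb has no value when all 4 arrays must be above background, since dim signal limits it, and a slide correlation could not be estimated.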
